A study of Rattus norvegicus with 8 samples.

Results

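Shore tiles are stretches of 1000 bases that flank CpG-dense stretches of the rat genome. The genome of chromosomes 1 to 20 was divided into fixed tiles of 1000 bases, and a CpG dyad, the C of a CpG with the paired C on the other strand, was kept where each of the 8 libraries had at least 10 calls. A tile with 21 or more kept dyads was taken as dense. A tile with 3 to 10 kept dyads that lay 1 or 2 tiles from a dense tile was taken as a shore tile. This gave 2538 shore tiles of 96633 tiles with at least 3 kept dyads, with 1813 at distance 1 (touching the dense tile) and 725 at distance 2. The rule used the number of covered dyads and the position alone, and no methylation level. Because the dyads counted are those covered by the assay, a dense tile is a tile rich in covered CpGs and need not be an annotated CpG island.

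The libraries came from male Sprague Dawley rats that were 2 months old when they began 6 weeks on docosahexaenoic acid (DHA), a fatty acid of the omega-3 family, and all 8 libraries share this diet. One group was hippocampus (4 libraries) and the other was hypothalamus (4 libraries), both dissected as whole tissue, and tissue was the contrast of the study that these files allow. The protocol text speaks of fructose and/or DHA, while the sample labels name DHA alone, and other diets were not analysed here. The assay was reduced representation bisulfite sequencing (RRBS), in which MspI cuts genomic DNA at its CpG-containing site, short fragments are sequenced after bisulfite treatment, and an unmethylated C is read as T. Because each library is a mixture of neurons, glia and other cells, a change in the share of a cell type and a change of methylation within a cell type cannot be told apart.

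CpG islands are CpG-rich stretches, often at gene starts, that stay mostly free of methylation in normal tissues, while most CpGs elsewhere in mammalian genomes are methylated. The shores are the flanks of an island, where the density of CpGs drops and methylation climbs from the island level to that of the surrounding DNA. Shores are known from work on other tissues as places where methylation often differs between cell types, and such differences have been linked to the use of nearby genes.

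As examples of gene starts near a shore, 5 gene starts were chosen beside shore tiles called different between the tissues. At 3 of them the shore had the higher level in hypothalamus (Nab2, Nr4a1 and Sstr2). The other 2, Neurog1 and Fezf2, were the only genes with a placed start beside a called shore with the higher level in hippocampus. The Fezf2 libraries overlapped between the tissues, and its call was lost in several alternatives. At Nab2, Nr4a1, Sstr2 and Neurog1 the called shore lay downstream of the start. Their printed bases thus lie on the other side of the start from that shore. The sequences are the 250 bases before the start site from RefSeq on GRCr8, written 5′ to 3′ on the strand of the gene: Nab2 at chr7:65389256-65389505 (minus strand), Nr4a1 at chr7:134259888-134260137 (plus strand), Sstr2 at chr10:99163103-99163352 (plus strand), Neurog1 at chr17:8367846-8368095 (plus strand) and Fezf2 at chr15:15203943-15204192 (plus strand). Capitals mark the CpGs that were kept in these libraries.
Nab2: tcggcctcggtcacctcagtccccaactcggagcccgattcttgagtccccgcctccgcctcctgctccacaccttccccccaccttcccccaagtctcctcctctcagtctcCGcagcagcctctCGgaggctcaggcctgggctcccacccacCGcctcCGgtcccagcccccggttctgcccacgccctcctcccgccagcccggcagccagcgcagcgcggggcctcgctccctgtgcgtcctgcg
Nr4a1: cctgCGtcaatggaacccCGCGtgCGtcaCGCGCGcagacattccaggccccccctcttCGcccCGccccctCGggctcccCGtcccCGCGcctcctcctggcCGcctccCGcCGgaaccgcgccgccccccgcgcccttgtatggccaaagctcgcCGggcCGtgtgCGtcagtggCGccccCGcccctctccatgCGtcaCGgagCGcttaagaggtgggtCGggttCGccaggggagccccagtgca
Sstr2: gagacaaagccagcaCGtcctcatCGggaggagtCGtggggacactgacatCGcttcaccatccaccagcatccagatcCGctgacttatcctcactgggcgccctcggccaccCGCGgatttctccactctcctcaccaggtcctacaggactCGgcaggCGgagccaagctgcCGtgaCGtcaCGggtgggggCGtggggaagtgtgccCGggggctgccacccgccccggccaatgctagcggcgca
Neurog1: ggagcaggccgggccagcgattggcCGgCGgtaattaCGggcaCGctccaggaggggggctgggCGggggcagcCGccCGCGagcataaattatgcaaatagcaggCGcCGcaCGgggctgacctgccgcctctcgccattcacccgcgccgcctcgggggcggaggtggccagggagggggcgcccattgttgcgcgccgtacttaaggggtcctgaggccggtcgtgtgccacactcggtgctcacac
Fezf2: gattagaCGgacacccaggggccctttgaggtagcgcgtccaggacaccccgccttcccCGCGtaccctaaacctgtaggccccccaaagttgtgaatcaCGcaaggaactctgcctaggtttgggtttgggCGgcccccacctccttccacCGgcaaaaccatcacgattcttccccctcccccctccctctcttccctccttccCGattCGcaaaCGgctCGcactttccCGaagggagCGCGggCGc

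The 5 windows hold 18 to 32 CpGs, and 4 to 26 of them were kept. Each holds the MspI site CCGG, as do 46.2% of the 33469 RefSeq windows of this length. Both features follow from the choice of windows, which had to be covered by MspI fragments and lie by a dense tile, and nothing is read from them. Over the kept dyads of each window, the level was low in both tissues. In hippocampus it was 1.84% ± 1.46 (SD, n = 4) at Nab2, 1.11% ± 0.822 at Nr4a1, 1.53% ± 0.968 at Sstr2, 1.59% ± 1.25 at Neurog1 and 2.13% ± 1.47 at Fezf2. In hypothalamus it was 1.04% ± 2.08, 0.340% ± 0.296, 1.02% ± 0.429, 0.251% ± 0.347 and 3.35% ± 2.76 (SD, n = 4), in the same order. The sequence of the shore tiles themselves is not printed, since a genome of the deposited build (rn5) was not used here, and all tile positions below are rn5.

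Kept dyads had a median of 64 to 79 calls in the hippocampus libraries and of 57, 71, 22 and 34 calls in hypothalamus 1 to 4, so levels in hypothalamus 3 and 4 were the least precise. The labels do not say which libraries came from one animal, and p-values measure the spread between these libraries. At 335 dyads where each library had a low, middle or high level as a genotype would give, the classes of hippocampus 1 and hypothalamus 1 agreed at 99.1% and those of hippocampus 4 and hypothalamus 4 at 99.4%. The other 26 pairs agreed at 22.4% to 38.8%. The level at CHH cytosines followed by C (H is A, C or T), where little methylation is known in mammals, stood at 0.370%, 0.332%, 1.76% and 1.85% across hippocampus 1 to 4 and at 1.0%, 0.310%, 0.412% and 1.01% across hypothalamus 1 to 4, and it is given because unconverted C raises it.

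Methylation climbed with distance from the dense tile in both tissues. At distance 1 the mean of the tile levels was 16.9%, 16.5%, 19.0% and 19.1% in hippocampus 1 to 4 against 18.8%, 17.3%, 17.9% and 19.8% in hypothalamus 1 to 4. The tissues overlapped, with hippocampus at 17.9% ± 1.36 and hypothalamus at 18.4% ± 1.07 (SD, n = 4 per tissue). At distance 2 it was 47.1%, 46.5%, 48.8% and 48.7% in hippocampus and 50.2%, 48.3%, 49.5% and 52.3% in hypothalamus. Here 3 of the 4 hypothalamus libraries lay above every hippocampus library, and hypothalamus 2 lay between them. The means were 47.8% ± 1.13 and 50% ± 1.66 (SD, n = 4 per tissue), a difference of 2.28 points. Dense tiles had 6.10% in hippocampus and 5.80% in hypothalamus. Tiles of the same dyad number that lay over 10 tiles away had 71.2% and 73.3%.

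The tissue difference in these averages depended on how tiles were weighted. With all calls summed, so that deep tiles count more, shore tiles at distance 1 had 15.2% ± 1.24 in hippocampus and 15% ± 1.81 in hypothalamus, a difference of -0.236 points. At distance 2 they had 45.1% ± 0.859 and 46.0% ± 3.03, a difference of 0.926 points (SD, n = 4 per tissue). The first difference was smaller than the SD of either tissue. The second was smaller than the SD in hypothalamus and slightly larger than that in hippocampus, and leaving out hypothalamus 4 turned it to -0.409 points. No p is given for these averages, because the tiles were chosen with results of these data known.

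The step between the averages of distance 1 and distance 2 tiles was larger in hypothalamus when each tile counted the same. It was 30.2, 30, 29.7 and 29.6 points in hippocampus 1 to 4 against 31.4, 30.9, 31.6 and 32.5 points in hypothalamus 1 to 4, so the tissues did not overlap. With calls summed the steps were 29.3 to 30.3 points in hippocampus and 30.1 to 33.1 points in hypothalamus, and they overlapped. Both averages come mostly from different places in the genome, so this step is not the slope along single shores. In 195 cases tiles of both distances lay side by side on the same flank. There the median step in the mean level over 8 libraries was 10.5 points.

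**Figure D1:**
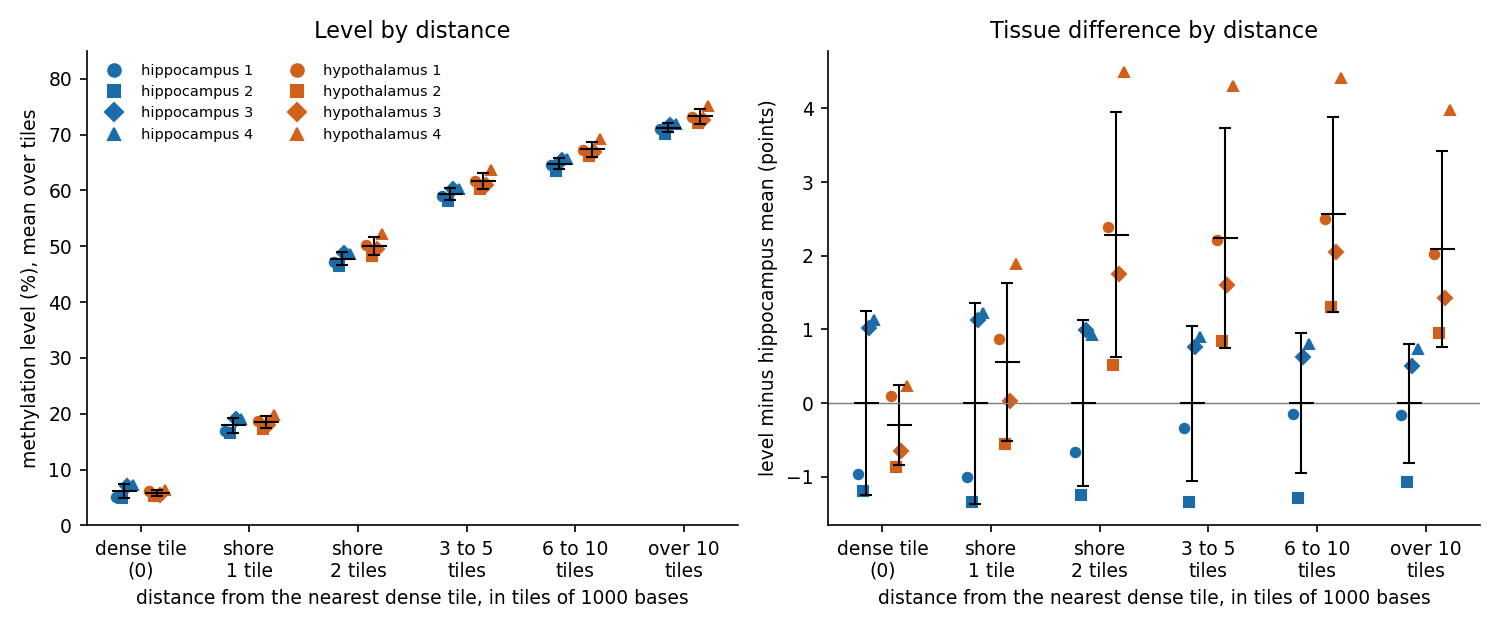
Methylation level by distance from the nearest dense tile, as the mean over tiles (left, %) and as the difference from the hippocampus mean (right, percentage points). Each symbol is 1 library, black marks are the mean and SD of 4 libraries, and all classes but the dense tiles hold 3 to 10 kept dyads; the level rises from 6.10% to 71.2% in hippocampus and from 5.80% to 73.3% in hypothalamus.

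Among the lowest shore tiles the level differed more between libraries than between tissues. At distance 1, 1023 of the 1813 tiles had a mean level under 5%, and their average was 1.01%, 0.851%, 3.27% and 3.32% in hippocampus 1 to 4 against 1.97%, 0.957%, 1.09% and 1.94% in hypothalamus 1 to 4. Hippocampus 3 and 4 stood highest, as they did at CHH cytosines followed by C. The part of incomplete conversion in these values was not tested. Tiles with a mean level under 5% or over 95% were left out of the test of tissue differences. The 768 tested tiles at distance 1 averaged 36.6% in hippocampus and 38.8% in hypothalamus, and the 578 at distance 2 averaged 55.5% and 58.5%.

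Within the shores, the level rose from the edge of the dense tile, levelled off before 1000 bases and rose again beyond them. Dyads up to 1000 bases come from distance 1 tiles and those beyond from distance 2 tiles, of which 195 lie next to a distance 1 shore on the same flank. Binned in 250 bases from the edge of the dense tile, the mean dyad level was 9.84% in hippocampus and 9.83% in hypothalamus over the first bin (6525 dyads). It was 21.7% and 22.3% over the second bin, 26.9% and 28.0% over the third and 27.6% and 29.3% over the fourth. Beyond 1000 bases it was 32.6% and 34.1%, then 48.4% and 50.7%, 54.7% and 57.4%, and 50.8% and 53.4% in the last bin (884 dyads). The hypothalamus minus hippocampus difference was -0.00739 points in the first bin, 1.69 points in the fourth and 2.74 points in the seventh. In the seventh bin, the one of largest difference, the libraries of hippocampus had 54.2%, 53.4%, 55.7% and 55.5%. Those of hypothalamus had 57.4%, 55.7%, 57.0% and 59.6%. The tissues were barely apart there, with hippocampus 3 at 55.67% and hypothalamus 2 at 55.74%. From the second to the sixth bin the libraries of the tissues overlapped, in the sixth with hippocampus 3 at 49.2% and hypothalamus 2 at 48.9%. In the first bin they overlapped throughout, at 8.52% to 11% and 9.0% to 10.7%.

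**Figure D2:**
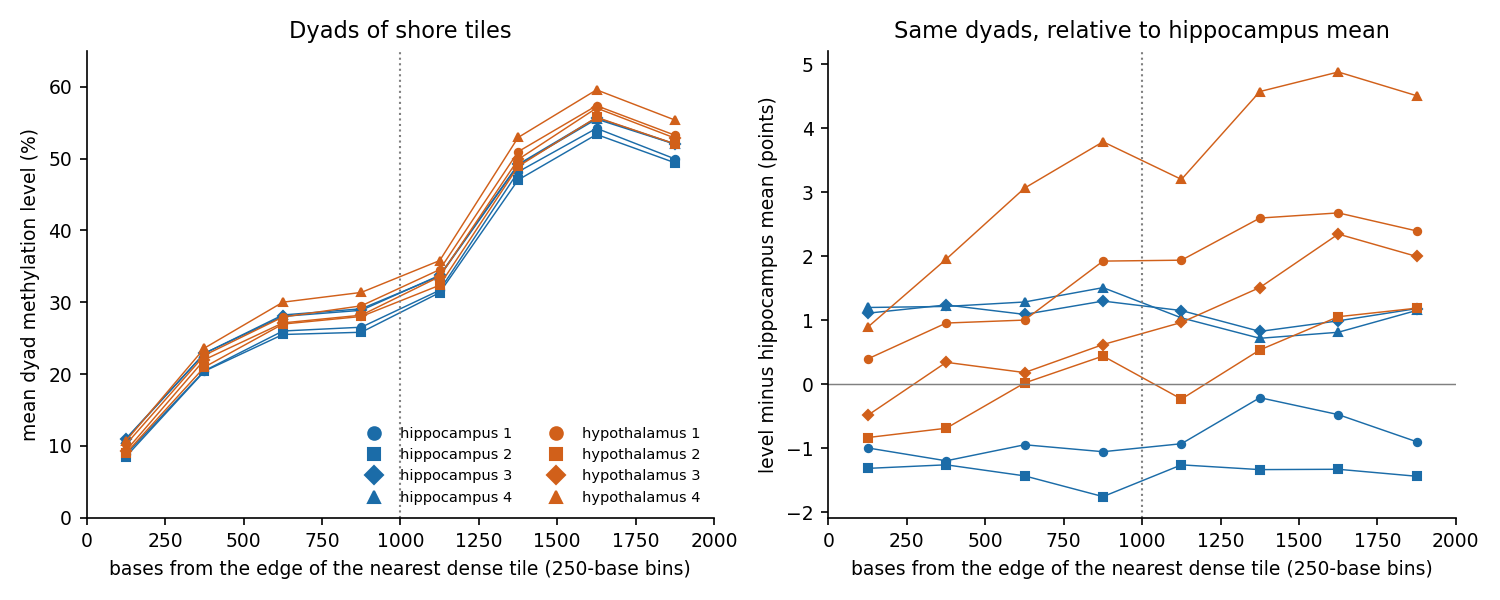
Mean methylation level of kept dyads of shore tiles (left, %) and the same level minus the hippocampus mean (right, percentage points) in 250-base bins from the edge of the nearest dense tile; each line is 1 library and the dotted line marks the border between distance 1 and distance 2. The level averages 27.6% in hippocampus and 29.3% in hypothalamus in the bin before 1000 bases, and 48.4% and 50.7% between 1251 and 1500 bases.

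The level of a shore followed the state of its dense tile. Beside dense tiles with a mean level under 10% (1610 tiles at distance 1), shores had 13.2% ± 1.38 in hippocampus and 13.6% ± 1.03 in hypothalamus. Beside dense tiles of 10% to 50% (125 tiles) they had 39.5% ± 1.60 and 41.4% ± 1.76, and beside dense tiles over 50% (78 tiles) they had 79.3% ± 0.666 and 80.8% ± 1.06 (SD, n = 4 per tissue). At distance 2 the 3 classes had 45.7% and 48.0% (632 tiles), 57.1% and 58.3% (60 tiles), and 70.8% and 74.1% (33 tiles) in hippocampus and hypothalamus. Beside dense tiles over 50% the order of the distances was thus turned round, with the higher level at distance 1 in both tissues.

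Shores with many covered CpGs were mostly less methylated than those with few, without a steady order. At distance 1 the hippocampus level was 26.4% ± 1.42 over the 288 tiles of 3 dyads and 7.96% ± 1.30 over the 165 tiles of 10 dyads, and in hypothalamus it was 27.9% ± 1.49 and 7.77% ± 0.662 (SD, n = 4 per tissue). At distance 2 it was 56.8% and 58.9% over tiles of 3 dyads and 37.7% and 38.6% over tiles of 10 dyads, while the tiles of 9 dyads were lower, at 31.5% and 32.1%. The side of the dense tile made little difference at distance 2, with 47.9% and 50.1% toward lower coordinates and 47.7% and 50.2% toward higher coordinates. At distance 1 the lower side had 16.9% and 17.4% and the higher side 19.1% and 19.7%. At the limits of the rule, tiles of 10 dyads had 12.9% in both tissues and tiles of 11 dyads, just outside it, had 12.7% and 13.1%. Tiles beside a tile of 21 dyads had 30.3% and 31.4%, and those beside a tile of 20 had 31.7% and 32.3%. Tiles at distance 3 stood higher than those at distance 2, with 56.3% and 58.5%.

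Between tissues, 131 of 1346 tested shore tiles were called different (9.73%), and at most of them the higher level was in hypothalamus. A tile was called at an adjusted p under 0.05 (F test of a quasi-binomial model, dispersion moderated with limma, Benjamini-Hochberg over all tested tiles) and a difference of at least 10 points. At distance 1, 61 of 768 tested tiles were called (7.94%), and at distance 2, 70 of 578 (12.1%), against 11.7% of all 75495 tested tiles. In hypothalamus the level was higher at 53 and 63 of them, together 116 of 1346 tested shore tiles, and in hippocampus at 8 and 7, together 15. Over all tested tiles 10.5% were called with the higher level in hypothalamus and 1.25% with the higher level in hippocampus. There was no overlap between the tissues at 121 tested tiles at distance 1 (15.8%) and 126 at distance 2 (21.8%), against 19.9% of all tested tiles. The call shares of the shores were thus near or under those of all tiles. Differences of 20 points or more were called at 13 and 9 tiles (1.69% and 1.56%), against 2.89% of all tested tiles.

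Most tested shore tiles leaned toward hypothalamus without being called. The median difference was 1.29 points at distance 1 and 1.69 points at distance 2, against 0.989 points over all tested tiles, and 502 of 768 and 388 of 578 tiles (65.4% and 67.1%) had the higher mean in hypothalamus, against 60.9% of all tested tiles. Tiles of the same dyad number at 3 to 5 tiles leaned much the same way, with a median of 1.77 points and 66.0% higher in hypothalamus, as did those at 6 to 10 tiles, with 1.71 points and 67.3%. Over all 1813 shore tiles at distance 1, which include the 1023 under 5%, the median difference was -0.442 points and 37.3% had the higher mean in hypothalamus. Over all 725 at distance 2 these were 0.685 points and 59.0%. Among called tiles the median difference was 15.8 points at distance 1 and 14.7 points at distance 2 where hypothalamus was higher, and -14.0 and -12.2 points where hippocampus was higher. The calls depended on which libraries were used. With replicates 1 and 4 alone, the pairs that agreed at genotype-like dyads, 50 and 49 shore tiles were called at the 2 distances, and with replicates 2 and 3 alone 21 and 9. Without hypothalamus 3 and 4, the shallowest libraries, 45 and 40 were called. Within the 4 libraries with lower CHH levels before C the counts were 50 and 49, and within the 4 with higher levels 38 and 37. Shares were compared at a mean level of 20% to 80%. Of tiles with 3 to 10 dyads over 10 tiles away, 23.1% were called with all libraries. That share was 16.8% with replicates 1 and 4, 5.45% with replicates 2 and 3, and 16.9% without hypothalamus 3 and 4. It was 16% and 11.8% in the libraries with lower and higher CHH levels. In the same order, shores at distance 2 had 20.8%, then 12.3%, 2.21%, 11.6%, 12.3% and 10.3%. Shores at distance 1 had 14.0%, then 10.99%, 3.42%, 10.6%, 10.6% and 7.51%. With replicates 2 and 3 the distance 2 share, 6 of 271 tiles, was thus under that of distance 1, unlike in the main fit. The sizes of these falls were not tested against each other.

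**Figure D3:**
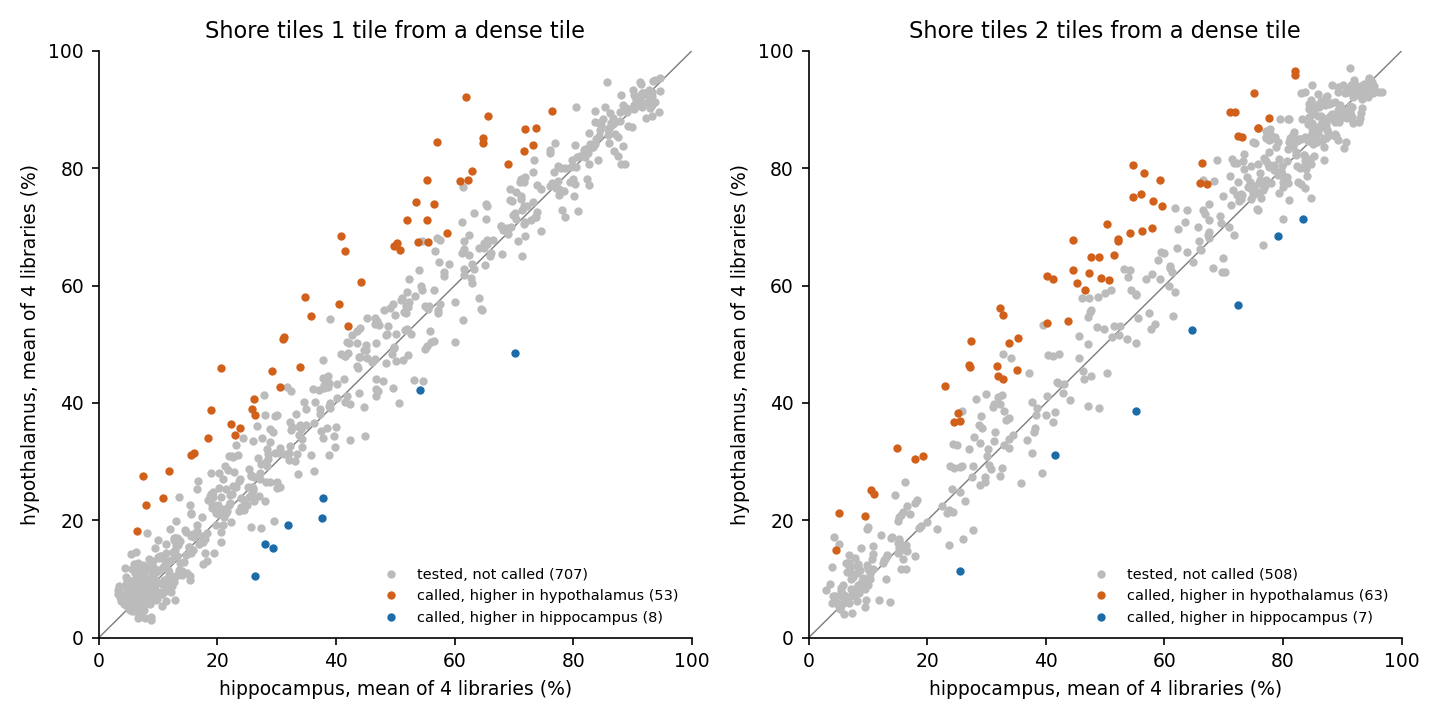
Mean methylation level (%) in hypothalamus against hippocampus, 4 libraries each, for every tested shore tile at distance 1 (left) and distance 2 (right); the line marks equal levels. Called tiles lie mostly above the line, 53 of 61 at distance 1 and 63 of 70 at distance 2.

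The distances differed in the mean level of their tiles, and a tile near 0% or 100% has little room to differ between tissues. At distance 1, 293 of the 768 tested tiles had a mean level of 5% to 20%, where 5 were called (1.71%), and 386 had 20% to 80%, where 54 were called (14.0%). At distance 2, 269 tiles had a mean level of 20% to 80% and 56 were called (20.8%). Tiles of 3 to 10 dyads over 10 tiles away were called in 6053 of 26188 cases at these levels (23.1%). From 40% to 60% the shares were 12.5% at distance 1, 29.7% at distance 2 and 27.4% over 10 tiles away. At a mean level of 20% to 80%, the share at distance 1 was under that of tiles over 10 tiles away in all 25 settings tried, and at distance 2 in 24 of them. The settings include the main fit and largely reuse the same tiles and libraries, so they are no independent support. These shares were not tested against each other. Over all tiles of each class, tested or not, the library with the fewest calls in a tile had a median of 125 calls at distance 1. This median was 107 at distance 2 and 100 over 10 tiles away, and it was not taken over the tested tiles alone.

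**Figure D4:**
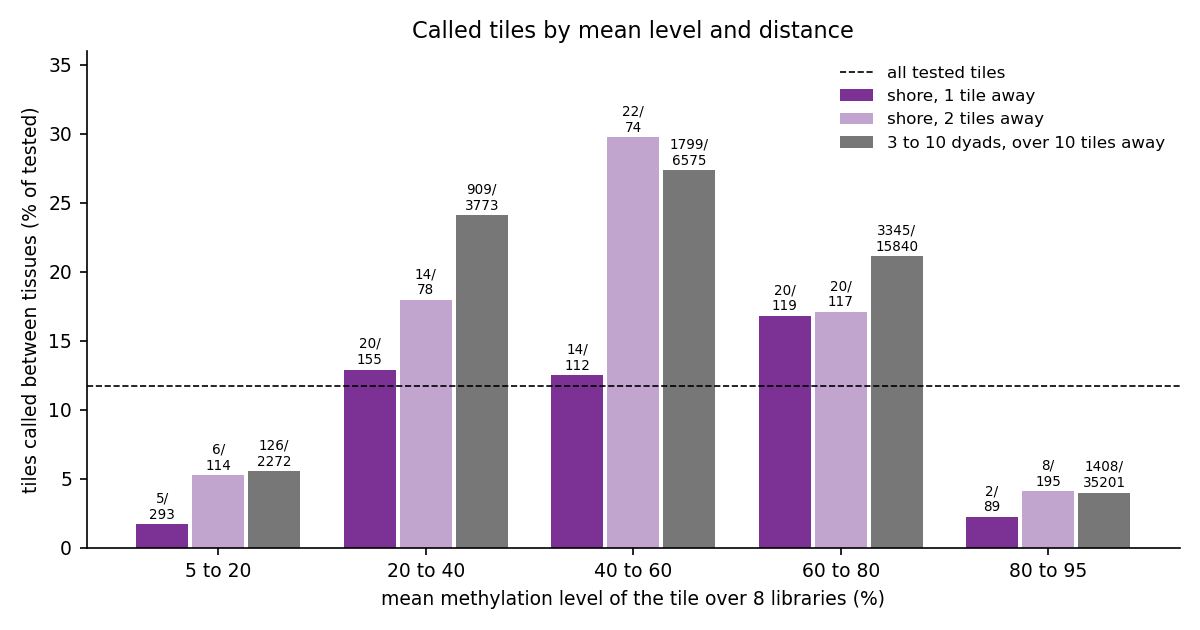
Share of tested tiles called between tissues (%), by the mean methylation level of the tile, for shore tiles at both distances and for tiles of 3 to 10 dyads over 10 tiles from a dense tile; numbers above the bars are called and tested tiles, and the dashed line is the 11.7% of all tested tiles. At 40% to 60% the bar of distance 1 stands at 12.5% and that of distance 2 at 29.7%.

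Most dense tiles beside called shores differed little between the tissues. Of the 53 tiles at distance 1 with the higher level in hypothalamus, 38 lay beside a dense tile with a mean level under 10%, and in 37 cases the dense tile differed by no more than 2 points between tissues. At distance 2 this held for 54 and 55 of 63 tiles. Such neighbours are common to shores, called or not. Of all tested shore tiles, 602 of 768 at distance 1 and 498 of 578 at distance 2 lay beside a dense tile under 10%. Of all 4743 dense tiles, 4003 had a mean under 5%, which leaves little room to differ. Beside the called shores with the higher level in hypothalamus, the median difference of the dense tile was 0.511 points at distance 1 and -0.604 points at distance 2. Beside the called tiles with the higher level in hippocampus, 4 of 8 dense tiles at distance 1 and 5 of 7 at distance 2 differed by no more than 2 points, with medians of -2.06 and -0.430 points.

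Adjacent dense tiles formed 4309 runs, of which 2025 had a shore tile. The 1346 tested shore tiles lay at 1139 runs, so most of these runs had a single tested shore. A single called shore tile was found at 121 runs and a pair at 5 runs. In 195 cases a distance 1 tile and a distance 2 tile lay side by side on the same flank, and the outer tile had the higher mean level in 148 of them (75.9%), with a median step of 10.5 points. Of these, 85 pairs were tested at both distances, and both tiles were called in 3, the outer one alone in 5 and the inner one alone in 6. Of 175 runs with a distance 1 shore on both flanks, 49 had both flanks tested and 1 had both called. For scale, 9.73% of tested shore tiles and 11.7% of all tested tiles were called. Joint calls of neighbouring tiles elsewhere were not counted, so these counts are not read as many or few.

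The largest difference among the called shores without overlap lay at chr7:118389001-118390000, at distance 1. Its level was 65%, 55.8%, 63.1% and 63.7% in hippocampus 1 to 4 against 93.5%, 91.5%, 92.9% and 90.6% in hypothalamus 1 to 4. The tissues were far apart, with a difference of 30.2 ± 2.17 points (SE, adjusted p = 1.38e-05 by the limma-moderated F test), while the dense tile beside it had a mean of 1.07%. At chr3:71215001-71216000 the level was 38.1%, 37.5%, 46.8% and 41.0% in hippocampus and 65%, 60%, 69.7% and 79.3% in hypothalamus, a difference of 27.6 ± 4.63 points (SE, adjusted p = 0.000557). The tile chr9:47198001-47199000, beside the start of Mfsd9, a gene of the major facilitator family of transporters, had 53.5%, 58.0%, 59.5% and 57.3% in hippocampus and 82.4%, 80.9%, 84.7% and 89.8% in hypothalamus. All 4 hypothalamus libraries stood above 80%, and the difference was 27.3 ± 2.35 points (SE, adjusted p = 9.14e-05). The dense tiles of these shores had means of 1.13% and 1.19%. Each shore tile of this paragraph held 3 kept dyads, the minimum of the rule. The library with the fewest calls had 42, 58 and 59 calls there, in the order given.

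Among called shores without overlap at distance 1, the largest differences in the other direction were smaller. The tile chr2:50964001-50965000 had 70.8%, 82.3%, 62.4% and 65% in hippocampus and 49.1%, 51.7%, 55.6% and 37.8% in hypothalamus. Its difference of -21.6 ± 5.84 points (SE, adjusted p = 0.00698) lost the call with a dispersion of its own (adjusted p = 0.0949), and its dense tile had a mean of 61.8%. The tile chr18:61366001-61367000 had 32.8%, 37.8%, 42.8% and 37.0% in hippocampus and 25.9%, 17.8%, 18.4% and 19.6% in hypothalamus, a difference of -17.2 ± 2.77 points (SE, adjusted p = 0.000917). Only tiles without overlap were listed, so the separation of the libraries at these tiles follows from the choice. At chr14:77685001-77686000 the difference was -15.7 points (adjusted p = 0.000449), with 20.4% to 33.2% in hippocampus and 7.28% to 13.3% in hypothalamus. At chr5:168886001-168887000 it was -14.0 points (adjusted p = 0.00104), with 24.9% to 33.2% and 11.3% to 19.2%. The dense tiles beside these 4 shores differed by -8.95, -2.26, -8.74 and -0.674 points between tissues, in the order given. The shores held 3, 8, 10 and 8 kept dyads, in the same order.

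At distance 2 the largest difference among called shores without overlap lay beside the start of Slc4a4. That gene encodes a sodium bicarbonate cotransporter of astrocytes and other cells. Its tile and the next one, on chromosome 12, held 3 kept dyads each, and that of Nmt1 held 6. The tile chr14:20725001-20726000 had 49.5%, 64.7%, 55.1% and 49.5% in hippocampus and 75.6%, 81.2%, 77.4% and 88.1% in hypothalamus, a difference of 25.9 ± 4.54 points (SE, adjusted p = 0.00131). The tile chr12:51190001-51191000 had 33.5%, 28.8%, 33.1% and 33.8% in hippocampus and 57.0%, 56.6%, 56.7% and 54.5% in hypothalamus. The libraries of each tissue were close together there, and the difference was 23.9 ± 1.30 points (SE, adjusted p = 9.45e-05). Beside Nmt1, an enzyme that attaches myristate to proteins, the tile chr10:90900001-90901000 had 43.1%, 41.3%, 47.8% and 46.4% in hippocampus and 63.5%, 64.3%, 66.7% and 76.5% in hypothalamus (difference 23.1 ± 3.36 points, SE, adjusted p = 0.000256). Beside Nab2, a co-repressor of the EGR transcription factors, the tile chr7:71140001-71141000 had 55.8%, 52.3%, 58.8% and 59.6% in hippocampus and 78.1%, 80.8%, 75.9% and 81.8% in hypothalamus. That was a difference of 22.5 ± 2.13 points (SE, adjusted p = 3.68e-05) over 7 dyads, 1778 bases from the start site whose window is printed above, which was itself almost free of methylation in both tissues.

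Of the distance 2 tiles with the higher level in hippocampus, chr15:2361001-2362000 differed by -16.5 ± 3.19 points (SE, adjusted p = 0.000783), with 48.6%, 55.5%, 57.4% and 59.1% in hippocampus and 36%, 34.1%, 40.7% and 43.8% in hypothalamus. The tiles of this paragraph held 10, 8, 4 and 3 kept dyads, in the order given. On chromosome 17 a pair of shores with this direction lay beside different dense runs. The tile chr17:11352001-11353000 had 72.9%, 70.8%, 71.2% and 74.8% in hippocampus and 51.4%, 54.3%, 57.4% and 63.8% in hypothalamus (difference -15.7 ± 2.79 points, SE, adjusted p = 0.000370). The tile chr17:11317001-11318000, downstream of the start of Neurog1, had 26.8%, 23.2%, 21.4% and 30.6% in hippocampus and 6.60%, 7.72%, 16.4% and 15.1% in hypothalamus. Neurog1 is a proneural transcription factor of the developing nervous system, and the difference was -14.1 ± 3.22 points (SE, adjusted p = 0.000796). At chr13:86104001-86105000 the levels were 66.3%, 66.1%, 59.9% and 66.1% in hippocampus and 57.2%, 50.7%, 57.0% and 44.6% in hypothalamus, a difference of -12.2 points (adjusted p = 0.0294) whose call was lost without any of 5 libraries, hippocampus 1, 2 or 4 or hypothalamus 2 or 4 (adjusted p 0.0610 to 0.0984). That call was also lost with a dispersion of its own (adjusted p = 0.0666) and with limma on logit levels (adjusted p = 0.0523).

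Of the 5 runs with a pair of called shores, 3 had the largest summed differences. On chromosome 1, the shores at chr1:212656001-212657000 and chr1:212657001-212658000 climbed away from a dense tile with a mean of 0.966%. The inner tile held 3 kept dyads and the outer one 4. The inner tile had 27.3%, 19.7%, 20.5% and 15.2% in hippocampus and 41.9%, 42.4%, 52.0% and 47.2% in hypothalamus (difference 25.2 ± 3.44 points, SE, adjusted p = 0.000643). The outer tile had 64.6%, 70.6%, 80.8% and 71.5% in hippocampus and 89.2%, 92.6%, 89.3% and 87.5% in hypothalamus (difference 17.7 ± 3.5 points, SE, adjusted p = 0.00154). In both tissues the outer tile was the higher one, and hypothalamus was higher than hippocampus in each tile.

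Both other runs had a highly methylated dense tile with lower shores. The dense tile chr5:156639001-156640000 had a mean of 94.1%, and its shores fell below it in both tissues. The inner shore, chr5:156640001-156641000, had 54.3%, 51.3%, 56.2% and 59.4% in hippocampus and 81.2%, 81.1%, 68.2% and 81.3% in hypothalamus (difference 22.7 ± 3.67 points, SE, adjusted p = 0.000295). The outer one, chr5:156641001-156642000, had 49.1%, 56.4%, 56.2% and 57.3% and then 77.7%, 76.6%, 66.5% and 79.5% (difference 20.3 ± 3.47 points, SE, adjusted p = 0.000201). Hypothalamus 3 was the lowest hypothalamus library at both. The dense tile chr5:159072001-159073000 had a mean of 91.0% and a called shore on each flank, with differences of 14.8 ± 3.13 points (SE, adjusted p = 0.00116) on the lower side and 16.4 ± 5.22 points (SE, adjusted p = 0.0261) on the higher side. On the higher side the tissues overlapped, at 37.3% to 50.9% in hippocampus and 49.2% to 67.9% in hypothalamus, and the call was lost without hippocampus 2 or 4 or hypothalamus 1 or 4 (adjusted p 0.0533 to 0.177) and with a dispersion of its own (adjusted p = 0.161).

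Gene names came from the RefSeq start-site windows. A window was placed on the deposited positions where its cytosines matched every listed cytosine at a single place, and 5986 of 33469 windows were placed on their own chromosome. A gene was assigned to a shore tile where its start lay in the shore, in the adjoining dense run or between them, a rule chosen after the data were seen. An rn5 gene annotation was not used here, so whether a shore is exonic or intronic is not stated, and tiles with no placed start may still flank a gene. In this way 951 shore tiles had a gene start, 431 of them were tested, and 35 were called (8.12%, against 11.7% of all tested tiles). In 33 the level was higher in hypothalamus and in 2 in hippocampus. At 31 of the 35 the tissues did not overlap, as at 88.8% of all called tiles, and 33 lay beside a dense tile with a mean under 10%. Of all tested shore tiles, 602 of 768 at distance 1 and 498 of 578 at distance 2 lay beside such a dense tile. Where the start site fell within the shore tile itself, the tile was mostly unmethylated: of 103 such tiles at distance 1, 86.4% had a mean under 5%, and 14 were tested. Together with 7 tested tiles of this kind at distance 2, none of 21 was called by the limma-moderated F test or by edgeR, 5 had an unadjusted p under 0.05 by either, and 1 was called by limma on logit levels. Of all tested tiles 11.7% were called by the F test and 28.6% had an unadjusted p under 0.05.

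Shores with a placed gene start were less methylated than the other shores at distance 1 and more methylated at distance 2. At distance 1, shores with a placed start had 12.9% in hippocampus and 13.2% in hypothalamus, and 11 of 240 tested tiles were called (4.58%). At distance 2 they had 50.6% and 53.6%, and 24 of 191 were called (12.6%). Shores with no placed start had 21.1% and 21.9% at distance 1 and 46.4% and 48.3% at distance 2, and 9.47% and 11.9% of the tested ones were called. Upstream and downstream sides were much alike, with 6 of 127 and 7 of 134 called at distance 1 and 9 of 88 and 15 of 115 at distance 2. These shares were not tested against each other.

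The called shores with the higher level in hypothalamus lay beside genes of several kinds. Among transcription regulators and their partners, Nr4a1, an activity-induced orphan nuclear receptor, had a called shore downstream of its start. That shore had 69.4%, 71.8%, 74.0% and 68.9% in hippocampus and 90.2%, 84.0%, 91.6% and 92.2% in hypothalamus. The difference was 18.5 ± 2.22 points (SE, adjusted p = 0.000208 by the limma-moderated F test). The shore of Mbd3, a subunit of the NuRD chromatin complex, had 37.4% to 45.3% in hippocampus and 57.1% to 66.2% in hypothalamus. That of Gps2, a subunit of a nuclear receptor co-repressor complex, had 55.3% to 69.0% and 72.0% to 83.1%. Smad3, which carries signals of the TGF-beta family to the nucleus, had a called shore on both flanks, of which the inner call was lost in several alternatives, and Mafk, a small Maf protein, had 45.9% to 53.4% and 55.8% to 68.3%. Of these, the inner Smad3 shore had overlapping libraries, at 34.2% to 53.2% in hippocampus and 40.9% to 65.4% in hypothalamus, while its outer shore did not, at 23.4% to 29.2% and 31.3% to 47.2%.

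Among genes of signalling between cells, the shore of Sstr2, a somatostatin receptor, had 50.7%, 50.2%, 62.4% and 50.4% in hippocampus and 73.2%, 74.8%, 72.0% and 77.0% in hypothalamus, a difference of 20.8 ± 3.19 points (SE, adjusted p = 0.000491 by the limma-moderated F test). Its libraries did not overlap, although hippocampus 3 stood apart from the other hippocampus libraries. The tiles of Sstr2 and Vegfa held 3 kept dyads each, and that of Olfm1 held 8. The shore of Vegfa, a growth factor of blood vessels, was low in both tissues, with 12%, 9.85%, 20.9% and 17.1% in hippocampus and 28.8%, 30.4%, 42.1% and 27.8% in hypothalamus. That of Olfm1, a secreted glycoprotein of neurons, had 8.53% to 14.7% and 22.4% to 36.7%. Mgll, the lipase that breaks down an endocannabinoid, had overlapping libraries, since hypothalamus 2 stood at 24.2% beside 45.9% to 53.2% in the other hypothalamus libraries and 16.6% to 27.5% in hippocampus. Sorl1, a sorting receptor that binds the amyloid precursor protein, had 22.7% to 42.3% and 50% to 64.5%.

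The remaining called shores with a named gene on this side flanked genes of mixed kinds, with differences from 11.1 points (Slc5a5) to 23.2 points (Ccdc186). Ccdc186, which encodes a protein of dense-core vesicle formation, had 61.9% to 70.5% in hippocampus and 85.7% to 91.1% in hypothalamus. Ada, which breaks down adenosine, had 52.0% to 71.2% in hippocampus and 73.8% to 82.7% in hypothalamus. Slc5a5, the sodium iodide symporter, had 74.8% to 76.8% and 84.4% to 89.2%, and Crabp2, a retinoic acid binding protein, had 21.8% to 27.8% and 30.9% to 45.7%. Frat2, a binding partner of the kinase GSK3, had libraries that overlapped, at 49.3% to 56.3% and 53.8% to 79.8%. The others were Coro1c, Htra1, Gba2 with Rgp1 (1 tile on the lower side of both starts), Matk, Mob1b, Gp1bb, Osbpl3, Mpv17l2, Pgp, Ppcs and Nudt22, all without overlap. The dense tile of Gp1bb differed by 8.24 points between tissues, and those of the other genes named here by under 4 points. Another 2 called tiles lay beside genes that RefSeq lists only by number.

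Of the 35 called shores with a gene start, 25 kept the call whichever library was left out and 10 lost it. With the dispersion of each tile alone 17 of the 35 lost the call, with limma on logit levels 5 and with edgeR 2. Sorl1, Vegfa, Gps2, Htra1, Gba2 with Rgp1, Mob1b, Mpv17l2 and the outer Smad3 shore lost it in 1 of the 12 alternatives, their own dispersion (adjusted p 0.0504 to 0.0896). With adjusted p-values of the limma-moderated F test, Ada lost it without hypothalamus 2 (0.0855), Pgp without hypothalamus 1 (0.113), and Crabp2 without hippocampus 1 or hypothalamus 1 or 4 (0.0511 to 0.0644). Mafk lost it without hippocampus 3 or 4 or hypothalamus 1 or 4 (0.0602 to 0.102), and the inner Smad3 shore without replicate 1 or 2 of either tissue (0.0661 to 0.345). That Smad3 call was also lost with edgeR (adjusted p = 0.106), with limma on logit levels (adjusted p = 0.230) and with a dispersion of its own (adjusted p = 0.174). Mgll lost it without any library but hippocampus 1 and 3 and hypothalamus 2 (0.0560 to 0.131), and Frat2 without any but hippocampus 1 and hypothalamus 2 (0.0672 to 0.137). Nudt22 had a difference of 9.94 points without hippocampus 2, just under the limit of 10. The other 2 were Fezf2 and a gene known only by number.

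**Figure D5:**
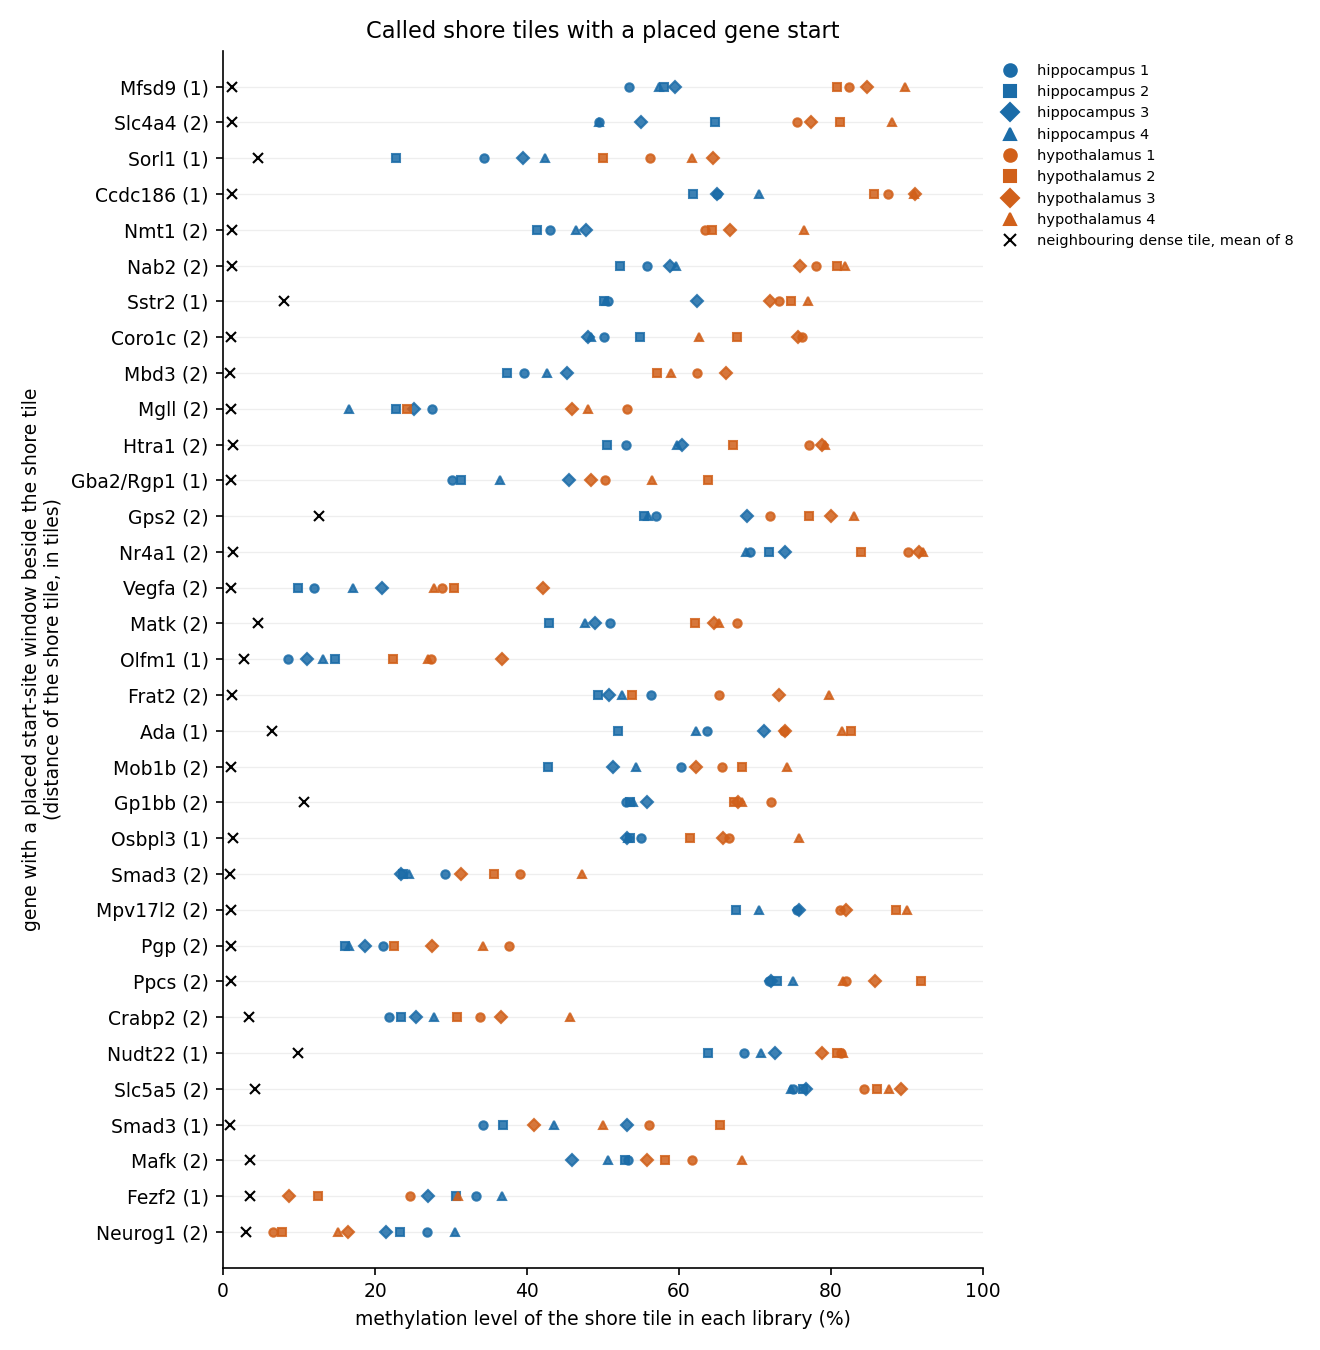
Methylation level (%) in each of 8 libraries for the 33 called shore tiles with a named gene start placed beside them, ordered by the tissue difference; the number after the gene is the distance of the shore in tiles, and crosses give the mean of 8 libraries in the neighbouring dense tile. In 31 tiles the hypothalamus mean is higher, and in the tiles of Neurog1 and Fezf2 the hippocampus mean is higher.

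The called shores with a gene start and the higher level in hippocampus were those of Neurog1, given above, and Fezf2. Fezf2 encodes a zinc finger factor of the embryonic forebrain, and the shore upstream of its start, chr15:16853001-16854000, had 33.3%, 30.6%, 27% and 36.7% in hippocampus and 24.6%, 12.5%, 8.64% and 30.9% in hypothalamus. The difference was -12.7 ± 5.58 points (SE, adjusted p = 0.0383 by the limma-moderated F test), and the tissues overlapped, since hypothalamus 4 lay above hippocampus 2 and 3. The Fezf2 call was lost with edgeR (adjusted p = 0.0601), with limma on logit levels (adjusted p = 0.0991) and without hippocampus 1, 2 or 4 or hypothalamus 2 or 3 (adjusted p 0.0579 to 0.233). It was also lost by the F test with a dispersion of its own (adjusted p = 0.232). Of the other tested Neurog1 shore, upstream at distance 1, the levels were 7.89% to 13.5% in hippocampus and 8.26% to 15.9% in hypothalamus, and it was not called. The window before the Neurog1 start, printed above, was nearly unmethylated in hippocampus and in hypothalamus. That of Fezf2 was low, with a mean of 2.13% in hippocampus and 3.35% in hypothalamus, and hypothalamus 4 was the highest library at 7.07%.

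Non-CG levels of the same tiles overlapped between the tissues. Neurons are known to carry methylation before A, and at such CHH cytosines shore tiles at distance 2 had 1.85%, 1.62%, 4.5% and 4.69% in hippocampus 1 to 4 against 3.02%, 1.66%, 2.14% and 3.07% in hypothalamus 1 to 4. At distance 1 they had 2.40% ± 1.66 and 1.52% ± 0.617 (SD, n = 4 per tissue), and in dense tiles 1.93% ± 1.67 and 0.884% ± 0.482. The order of the libraries was nearly that of the CHH cytosines followed by C, which in the same tiles at distance 2 had 0.347%, 0.320%, 1.72% and 1.80% in hippocampus and 1.0%, 0.278%, 0.368% and 1.04% in hypothalamus. In every library the level before A was higher at distance 2 than at distance 1, and lowest in dense tiles.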

How the data were processed

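Hippocampus and hypothalamus, 4 RRBS libraries each, were analysed. Per the labels' protocols, DNA was cut with MspI, fragments of 150 to 300 bases were selected, bisulfite-treated and sequenced. The submitters' processing notes name Bowtie and rn5, while the methylation caller is not given in the sources used here, nor is the handling of duplicates. For each cytosine the authors deposited 2 counts (methylated calls and all calls) and their ratio as a fraction, which was not tested. No listed position had under 10 calls. Counts of both strands were summed per CpG dyad and then per tile. Listed calls per library totalled 509259699 to 625653602 in hippocampus and 178178404 to 572801479 in hypothalamus, and calls may include duplicate reads.

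All 75495 tiles with a mean level of 5% to 95% were fitted with a quasi-binomial logistic model with tissue as the only term. The dispersion was moderated with limma's squeezeVar (3.58.1, R 4.3.3) with a trend and a floor of 1, followed by an F test and Benjamini-Hochberg adjustment across all tested tiles. The fit was tested on simulated data. Alternatives used edgeR 4.0.16, limma on logit levels, other limits and subsets of libraries. Tables were made with Python 3.11.15, NumPy 2.4.6 and pandas 2.3.3.

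The members, lists and tests were chosen with earlier results of these data known. Tiles named without a gene follow 1 rule: among called shores without overlap, the 4 of largest difference in each direction at each distance, and all shores of the 3 dense runs with the most called shores (5 runs tied at 2, and the larger summed difference decided). Same-numbered libraries were not treated as pairs, since the correlations of their deviations over all tested tiles (0.0678 to 0.172) were over 0.1 for replicates 1 and 4 but not for 2 and 3. At genotype-like dyads replicates 1 and 4 agreed at 99.1% and 99.4%, as libraries of 1 animal would, and replicates 2 and 3 at 34.9% and 26.6%. The main fit nevertheless takes all 8 libraries as independent, and a fit with the replicate number as a block is given as an alternative. That block also joins replicates 2 and 3, which did not agree in this way. RefSeq windows (250 bases before to 50 after the start) were placed by seeds of 10 cytosines of 1 strand and kept with at least 25 listed cytosines, all matching, at 1 place.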

Additional observations from a re-analysis of the deposited data

Results flagged for a closer look

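In 7 of 106 groups of 4 library values checked at named shore tiles and shore averages, 1 library stood apart from the other 3 by more than Dixon's 95% limit. About 1 group in 20 does so by chance, or 5.3 of 106. At the shore of Sstr2 (chr10:101817001) hippocampus 3 had 62.4% where the other hippocampus libraries had 50.2% to 50.7%. At the shore of Gps2 (chr10:56271001) the same library had 69.0% beside 55.3% to 57.0%, and at chr13:86104001 it had 59.9% beside 66.1% to 66.3%. Hippocampus 2 had 28.8% at chr12:51190001 beside 33.1% to 33.8%, and hippocampus 1 had 49.1% at chr5:156641001 beside 56.2% to 57.3%. In hypothalamus, replicate 3 had 68.2% at chr5:156640001 beside 81.1% to 81.3%, and replicate 2 had 67.1% at the shore of Htra1 (chr1:208534001) beside 77.2% to 79.2%.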

How the results depend on the processing

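Of 176 summary values under alternatives, 140 kept their sign and moved by less than 1 SD between libraries (levels and medians), by no more than 1.5 times (counts) or within the 95% Wilson interval (shares). The level difference with calls summed was the least stable. At distance 1 (-0.236 points) leaving out 1 library gave -0.877 to 0.570 points, and it turned to 0.822 with replicates 1 and 4 only, 0.373 with dyads thinned to 10 calls and 0.559 with tiles unweighted. At distance 2 (0.926 points) leaving out 1 library gave -0.409 to 2.02 points. It was -0.404 in the 4 libraries with lower and 2.26 in those with higher CHH levels before C, 2.83 with replicates 1 and 4, -0.978 with replicates 2 and 3, 2.20 with thinned dyads, 2.28 unweighted, and -0.675 without the 2 shallowest libraries, an alternative chosen after seeing the data. The median tile difference at distance 1 was -0.442 over all tiles, tested or not, and at distance 2 it was 2.94 with replicates 1 and 4. Counts of calls at distance 1 and distance 2 were 52 to 71 and 53 to 82 without 1 library, 16 of 206 and 17 of 125 tested at a minimum of 20 calls, 38 and 37 in the libraries with higher CHH levels, 21 and 9 with replicates 2 and 3, 40 and 33 thinned, 35 and 31 with each tile's own dispersion, and 13 and 9 at 20 points. Dense tiles of 16 or more dyads gave 119 of 1327 tested at distance 1, and those of 31 or more gave 19 of 288 and 34 of 222. Without the 2 shallowest libraries 40 were called at distance 2. The share higher in hypothalamus was 66.7% at distance 1 with replicates 2 and 3, 95.9% at distance 2 with replicates 1 and 4, and 100% at distance 2 with a limit of 20 points. With the replicate number as a block, 69 and 82 tiles were called; each library correlated best with its own number over all tested tiles, but over the tested shore tiles replicates 2 and 3 of hippocampus did not. Of 612 checks of 51 named tiles under 12 alternatives 540 kept the call and 72 lost it, and 21 of the tiles lost it in 1 or more alternatives. The direction reversed in 0 checks. It could not reverse with the other dispersion, edgeR, limma on logit levels or the block, which share the difference of the main fit. The other alternatives left 1 library out of tiles that had been chosen for a large difference. The cause was not tested for any of these shifts. Tile levels were least precise in hypothalamus 3 and 4, with medians of 22 and 34 calls per dyad.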

Other observations

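A list of transcription factor genes of embryonic patterning, picked from the genes with a tested shore after the Neurog1 and Fezf2 results were seen and therefore no independent support for them, held 25 genes at 31 tiles. The 2 called tiles of the list (6.45%, against 11.7% of all tested tiles) were those of Neurog1 and Fezf2. The mean was lower in hypothalamus at 17 of the 31 tiles, and the median difference was -0.374 points. Most of these shores were low in both tissues, from 5.04% upward. A tile downstream of the start of Tbx6, a mesoderm factor, stood at 82.4% ± 1.47 in hippocampus against 83.2% ± 4.5 in hypothalamus (SD, n = 4 per tissue).

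The tissues did not overlap at 4 of the 31 tiles (12.9%, against 19.9% of all tested tiles), Neurog1 among them. The tiles described next were chosen after their values were seen. Upstream of Hey2, a target of Notch signalling, the level was 7.35%, 8.20%, 11.1% and 8.72% in hippocampus and 3.54%, 2.49%, 3.19% and 3.11% in hypothalamus. Upstream of Hoxd9 it was 12.8%, 12.1%, 14.3% and 13.1% in hippocampus and 9.36%, 9.25%, 9.90% and 11.4% in hypothalamus. Downstream of the start of Emx1, a forebrain homeobox gene, the order was the other way. The levels there were 5.62%, 5.22%, 7.68% and 5.81% in hippocampus and 11.1%, 9.28%, 8.25% and 10.9% in hypothalamus. The shore upstream of Emx1 had 10.8% to 13.6% in hippocampus and 7.35% to 10.8% in hypothalamus and overlapped. The shore upstream of Hand2 had 23.4%, 28.2%, 28.7% and 29.1% in hippocampus and 21.5%, 16.5%, 12.8% and 23.9% in hypothalamus, and the tissues overlapped. None of these shores met both limits of a call.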
